A study of Mus musculus with 18 samples.

Results

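Wnt ligands, their receptors and the secreted proteins that modulate them were examined in RNA-Seq libraries of mouse colonic epithelium. Members were taken by gene symbol, and 49 of the 55453 gene names in the count tables met the rule. They comprised 19 Wnt ligands, 15 receptors and coreceptors (the Frizzled genes, Lrp5, Lrp6, Ror1, Ror2 and Ryk), 4 R-spondins, 9 secreted inhibitors (the Sfrp genes, Frzb and the Dkk genes) and 2 genes of ligand acylation and secretion (Porcn and Wls). Of these, 36 had enough reads to be tested and 13 did not.

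All mice were female Swiss Webster and were given the colon carcinogen azoxymethane (AOM) when 7 weeks old. From week 9 all of them went through 4 cycles of dextran sulfate sodium (DSS), which causes colitis, each with 7 days of 2% DSS and then 14 days of plain water. A diet with 2 mg/kg folic acid (FA) was replaced at 11 weeks by chow with 0 or 8 mg/kg FA, which was fed for 16 weeks, and colons were collected at 27 weeks. Laser microdissection of fixed, paraffin-embedded colons supplied either non-dysplastic epithelium (ND) or polypoid dysplasia (P). Named by dose and tissue, the groups were 0ND and 0P, with 4 libraries each, and 8ND and 8P, with 5 libraries each. Every group therefore carried AOM, DSS and inflammation, and no library came from an untreated colon. The labels number the libraries within a group but do not tie them to animals, so p-values measure the spread between these libraries.

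Wnt proteins are secreted lipid-modified signals. Porcn attaches the lipid and Wls carries the ligand to the cell surface, where it binds a Frizzled receptor. With the coreceptors Lrp5 and Lrp6, this stabilizes beta-catenin, whereas Ror1, Ror2 and Ryk receive signals that can act without beta-catenin. R-spondins protect Frizzled receptors from removal, Sfrp proteins and Frzb bind Wnt ligands outside the cell, and Dkk1, Dkk2 and Dkk4 bind Lrp5 and Lrp6. In the colon, epithelial stem cells at the crypt base depend on Wnt ligands and R-spondins that are made largely by mesenchymal cells.

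Total counts on genes, which set the precision of each value, were 3500947 to 17048524 per library (median 10292934.5), of which members took 0.079 to 0.149%. Epithelial markers were present, with 9 of 9 detected in every group and a summed level of 2648 to 4443 CPM (counts scaled to a common library total). Epithelial markers also moved with dysplasia: 1 of 9 was higher and 4 were lower in 0P vs 0ND, and 1 was higher and 6 were lower in 8P vs 8ND. Of 4 colonocyte markers 3 were lower and of 4 goblet cell markers all 4 were lower in P at both doses, and 4 of 4 neutrophil markers were higher, from 7.59 to 12.6 CPM (0ND) and 10.4 to 17.9 (8ND) to 19.4 to 38.2 (0P) and 16.7 to 78.02 (8P) in sum. The part of these cells in the results on members was not tested. Stromal transcripts were also present: the 11 fibroblast markers had summed levels of 1127 to 1198 CPM (0ND), 1387 to 1592 (8ND), 1701 to 2292 (0P) and 1122 to 2588 (8P), and none was at 0. The 8 smooth muscle markers had sums of 1106 to 2814 CPM (0ND), 1112 to 1905 (8ND), 418 to 778 (0P) and 297 to 668 (8P), none at 0, and all 8 passed the test as lower in P at both doses. In such bulk samples, fewer cells of a type and less RNA per cell cannot be told apart. The libraries 8ND 1 and 8ND 2 lay nearest to the P libraries in an earlier look at these data, and the results that changed without them are given below with both values. Because they were picked for that nearness, leaving them out can by itself widen 8P vs 8ND and narrow 8ND vs 0ND. Fits without them are a description only.

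At both FA doses some Wnt ligands, receptors and inhibitors were higher in dysplasia than in ND and others were lower. As compared to 0ND, 19 of 36 tested members (52.8%) passed the test in 0P, 11 higher and 8 lower, where 31.6% of all 20787 tested genes passed (15.9% higher and 15.7% lower). As compared to 8ND, 17 of 36 (47.2%) passed in 8P, 10 higher and 7 lower, against 28.2% of all genes (13.9% higher and 14.3% lower). Members called in both comparisons numbered 17. The comparisons share no libraries but come from the same fit. The share of all genes called in both was not counted, so the number of members is a description. The 10 higher in both were the ligands Wnt6, Wnt10a, Wnt7b and Wnt5a, the receptors Fzd10, Fzd3, Fzd6 and Lrp5, and the inhibitors Dkk2 and Dkk3. The 7 lower in both were the ligand Wnt2b, the R-spondin Rspo3, the receptors Fzd5, Fzd8, Fzd4 and Ror1, and the inhibitor Sfrp2. Wnt3 (higher) and Lrp6 (lower) passed in 0P vs 0ND alone. Calls were made with edgeR at a Benjamini-Hochberg adjusted p under 0.05 over all tested genes. A member with few reads in ND could be tested only where its reads in P sufficed, so the counts over tested members are a description. The median log2 fold change of the 36 members was 0.25 in 0P vs 0ND and −0.01 in 8P vs 8ND, against −0.03 and 0.00 for all genes.

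**Figure D1:**
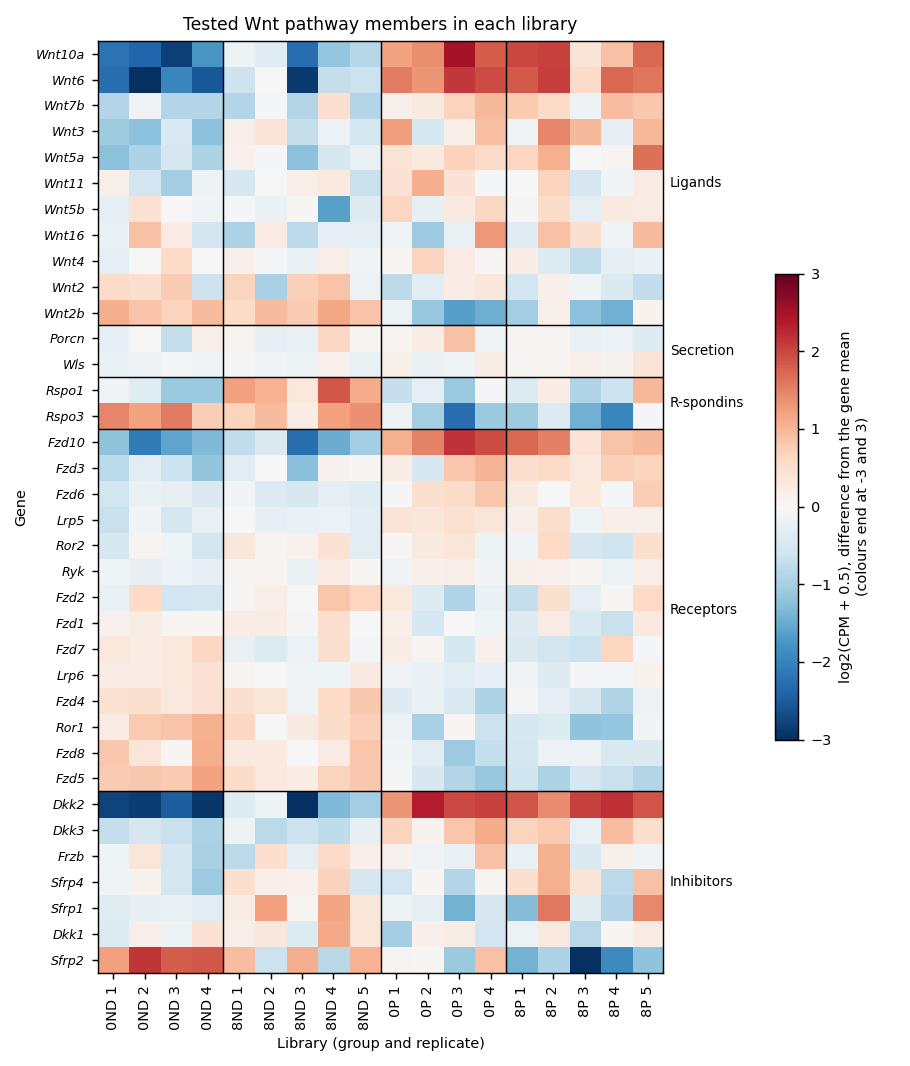
Level of the 36 tested members (rows, grouped by role and ordered by their change in 0P vs 0ND) in the 18 libraries (columns, by group), as log2 of CPM plus 0.5 minus the mean of the gene over all libraries; red is above and blue below that mean. Wnt10a, Wnt6, Fzd10 and Dkk2 are blue in the 0ND libraries and 8ND 3 and red in the P libraries, whereas Wnt2b, Rspo3 and Fzd5 are higher in every ND library than in every P library.

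The promoters of 5 members are shown because, of the members with a promoter entry, Dkk2, Wnt6 and Fzd10 had the smallest p among those higher in 0P vs 0ND, and Fzd5 and Wnt2b among those lower. Each sequence is the 250 bases before the RefSeq transcription start on GRCm38.p6, 5′ to 3′ on the strand of the gene, and they were chosen after the values were seen. Capitals mark CCCGGG, the site of the restriction enzymes with which the study read DNA methylation. Wnt10a has no entry in the promoter table used. The windows lie at chr1:74771642-74771891 (plus strand) for Wnt6, chr3:132085042-132085291 (plus) for Dkk2, chr5:128600856-128601105 (plus) for Fzd10, chr3:104961710-104961959 (minus) for Wnt2b and chr1:64737751-64738000 (minus) for Fzd5. In the GENCODE M21 annotation, used here for exon lengths, Fzd10 starts at 128600844 and Wnt2b at 104961921. By that annotation the Fzd10 window lies inside the gene, as does most of the Wnt2b window.
Wnt6: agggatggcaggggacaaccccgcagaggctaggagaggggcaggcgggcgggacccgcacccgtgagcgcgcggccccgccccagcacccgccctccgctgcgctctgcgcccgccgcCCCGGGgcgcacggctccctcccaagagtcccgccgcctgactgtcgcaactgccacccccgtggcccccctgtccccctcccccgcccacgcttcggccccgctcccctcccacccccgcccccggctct
Dkk2: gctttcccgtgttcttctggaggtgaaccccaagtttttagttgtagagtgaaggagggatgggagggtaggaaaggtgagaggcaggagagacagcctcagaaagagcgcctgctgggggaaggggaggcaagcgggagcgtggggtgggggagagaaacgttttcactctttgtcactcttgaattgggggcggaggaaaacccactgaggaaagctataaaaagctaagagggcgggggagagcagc
Fzd10: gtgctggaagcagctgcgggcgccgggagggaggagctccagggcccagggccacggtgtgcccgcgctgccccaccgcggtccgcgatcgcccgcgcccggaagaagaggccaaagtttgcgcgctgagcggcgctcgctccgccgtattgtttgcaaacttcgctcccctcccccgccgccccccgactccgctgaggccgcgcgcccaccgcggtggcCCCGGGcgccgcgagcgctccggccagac
Wnt2b: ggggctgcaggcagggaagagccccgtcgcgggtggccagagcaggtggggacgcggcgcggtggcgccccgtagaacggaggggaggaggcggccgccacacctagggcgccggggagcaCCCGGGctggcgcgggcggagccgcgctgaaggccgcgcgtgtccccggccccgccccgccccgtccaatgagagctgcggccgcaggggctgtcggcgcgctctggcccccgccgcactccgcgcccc
Fzd5: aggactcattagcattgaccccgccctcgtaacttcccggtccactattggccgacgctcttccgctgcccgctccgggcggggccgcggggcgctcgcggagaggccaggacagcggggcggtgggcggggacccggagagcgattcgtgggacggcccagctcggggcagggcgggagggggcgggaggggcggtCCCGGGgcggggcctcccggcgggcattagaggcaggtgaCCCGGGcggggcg

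The Dkk2 window differs from the other four in base composition: it holds 7 CG dinucleotides and no CCCGGG, whereas Wnt6 holds 28, Fzd10 37, Wnt2b 36 and Fzd5 32 CG, with at least 1 CCCGGG each. Of the 49 members, 32 had an entry in the table (35 windows). CCCGGG occurred in 12 of the 35 windows (34.29%) and in 11.18% of all 32851 promoter windows of the same length. The median number of CG dinucleotides was 22 in members and 6 over all windows. The letters CTTTG followed by AA, AT, TA or TT, which are forms of the site bound by the TCF/LEF partners of beta-catenin, were searched on both strands and occurred in 4 of the 35 member windows (11.43%), against 14.84% of all windows, and in none of the 5 windows shown.

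Among the ligands, 6 of 11 tested passed in 0P vs 0ND (5 higher and 1 lower) and 5 of 11 in 8P vs 8ND (4 higher and 1 lower). Wnt6 and Wnt10a, 2 ligands that can signal through beta-catenin, are neighbours on mouse chromosome 1 with 6193 bases between them in the mm10 annotation. Wnt6 measured 0.762, 0.176, 1.06 and 0.540 CPM in the 0ND libraries 1 to 4 and 16.9, 14.5, 25.9 and 22.8 CPM in 0P 1 to 4. In 8ND 1 to 5 it was 3.45, 5.61, 0.321, 3.19 and 3.38 CPM and in 8P 1 to 5 it was 21, 24.8, 8.5, 19.4 and 17.9 CPM. All P libraries lay above all ND libraries, and 8ND 3 lay among the 0ND values. The log2 fold change was 4.86 ± 0.56 (SE, adjusted p = 7.11e-06) in 0P vs 0ND and 2.50 ± 0.42 (adjusted p = 2.74e-04) in 8P vs 8ND. Of the members called, gene models overlap Wnt6, Wnt5a, Wnt7b, Fzd5, Fzd6 and Sfrp2 on the opposite strand, Wnt2b on the same strand and Rspo3, Fzd3 and Ror1 on both. Without the strand setting of the counting, reads of opposite-strand partners cannot be told apart, and same-strand overlaps remain uncertain under any setting.

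Wnt10a followed the same order. Its level was 0.254, 0.176, 0 and 0.540 CPM in 0ND 1 to 4 and 7.55, 8.75, 19.3 and 11.7 CPM in 0P 1 to 4. The 8ND libraries had 2.62, 2.21, 0.214, 1.06 and 1.43 CPM and the 8P libraries had 13.6, 13.9, 4.05, 5.96 and 11.0 CPM. No ND library reached the lowest P library at either dose. With all libraries the log2 fold change was 5.47 ± 0.68 (adjusted p = 1.11e-05) in 0P vs 0ND, where the 0ND libraries held 0 to 5 reads each, and 2.64 ± 0.48 (adjusted p = 5.37e-04) in 8P vs 8ND. The first value was 6.07 without 0ND 4, and the second was 3.44 (adjusted p = 8.21e-04) without 8ND 1 and 8ND 2.

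Wnt5a, the main ligand of beta-catenin-independent signaling, was already abundant without dysplasia. It rose from 26.8 ± 5.82 CPM (SD, n = 4) in 0ND to 70.9 ± 8.47 in 0P (n = 4), with no overlap of the groups (log2 fold change 1.40 ± 0.33, adjusted p = 0.00326). It rose from 40.5 ± 13.1 CPM in 8ND to 88.7 ± 44.5 in 8P (n = 5 each), where the groups overlapped (1.13 ± 0.29, adjusted p = 0.00743). The 7 markers of subepithelial crypt-top fibroblasts summed to 206 to 217 CPM (0ND), 170 to 287 (8ND), 279 to 416 (0P) and 246 to 415 (8P), none at 0, with 3 higher in 0P vs 0ND and 4 higher in 8P vs 8ND, and their part in the rise of Wnt5a was not tested.

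Wnt7b and Wnt3, both ligands of the beta-catenin pathway, were scarce. Wnt7b had 2 reads over the 4 0ND libraries and 42 over the 4 0P libraries, a ratio of counts per total of 17.2 (95% interval 4.48 to 147, exact and for counting error only). The test of Wnt7b passed in 0P vs 0ND (adjusted p = 0.00977) and in 8P vs 8ND (2.23 ± 0.77, adjusted p = 0.0361). In 0P vs 0ND its fitted log2 fold change of 3.73 became 6.25 without 0ND 2 and 3.11 (adjusted p = 0.0467) without 0ND 1. In 8P vs 8ND the call of Wnt7b was lost without 8ND 1, 8ND 3, 8ND 5 or 8P 5 (adjusted p 0.0601 to 0.0914) and without 8ND 1 and 8ND 2 together (0.0752), and the fold change moved to 2.99 without 8ND 2 and to 2.82 without 8ND 4. Of the 10 fits of 8P vs 8ND without 1 library, Wnt7b was tested in 8 and called in 4. Wnt3 went from 0.104 ± 0.169 CPM in 0ND to 1.27 ± 0.879 in 0P (3.50 ± 0.90, adjusted p = 0.00548, and 4.91 without 0ND 3). In 8P vs 8ND, Wnt3 went from 0.582 ± 0.343 to 1.48 ± 0.942 CPM and did not pass (1.27 ± 0.63, adjusted p = 0.143).

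The ligand that fell was Wnt2b, which colonic mesenchymal cells are known to make. It measured 37.0, 31.3, 27.4 and 33.4 CPM in 0ND 1 to 4 and 15.1, 7.44, 5.06 and 5.83 CPM in 0P 1 to 4. In 8ND 1 to 5 it measured 25.6, 33.6, 29.1, 38.9 and 31.3 CPM and in 8P 1 to 5 it measured 7.96, 18.9, 6.97, 5.96 and 18.2 CPM. Every P library lay below every ND library, with 0P 1, 8P 2 and 8P 5 the highest of the P libraries. In log2 terms the change was −1.94 ± 0.37 (adjusted p = 5.50e-04) in 0P vs 0ND and −1.46 ± 0.32 (adjusted p = 0.00248) in 8P vs 8ND. The smooth muscle markers, given above, fell as well, but other stromal markers did not all do so. Of 11 fibroblast markers, 6 were higher and 2 lower in 0P vs 0ND, and 1 was higher and 2 were lower in 8P vs 8ND. Of 7 crypt-top fibroblast markers, 3 and 4 were higher and 0 lower. Of 5 crypt-base fibroblast markers, 1 was higher in each, and 2 and 3 were lower. The part of these cells in the fall of Wnt2b was not tested.

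The remaining ligands did not pass in either comparison. Wnt4, a ligand expressed in intestinal stroma and epithelium, averaged 8.52 CPM (0ND), 7.9 (8ND), 9.64 (0P) and 6.57 (8P). Wnt5b, Wnt2, Wnt11 and Wnt16 had group means between 0.469 CPM (Wnt16 in 8ND) and 3.65 CPM (Wnt5b in 0P). Wnt11 was 0.518 CPM in 0ND and 1.36 CPM in 0P (1.25 ± 0.53, adjusted p = 0.0785), and it passed without 0ND 1 (adjusted p = 0.0362). Wnt10b, Wnt9a, Wnt7a, Wnt8b, Wnt9b, Wnt8a, Wnt1 and Wnt3a were not tested and had 113, 86, 51, 48, 39, 3, 2 and 2 reads over all 18 libraries.

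To compare ligands with each other, CPM was divided by the summed exon length of each gene in kilobases. The summed ligand level was 16.02 ± 0.844 CPM per kilobase in 0ND (SD, as below), 19.0 ± 2.92 (8ND), 31.0 ± 4.85 (0P) and 31.3 ± 10.7 (8P). Wnt2b had the largest mean share in ND, with 48.2 ± 7.78% in 0ND and 40.4 ± 7.48% in 8ND, and had 6.74 ± 4.17% in 0P and 8.53 ± 2.42% in 8P. Wnt5a was second in ND with 21.3 ± 3.78% in 0ND and 26.8 ± 6.08% in 8ND, where the ranges of the pair overlapped (29.9 to 49.01% for Wnt2b and 18.9 to 34.1% for Wnt5a). In dysplasia Wnt5a took 29.4 ± 1.09% in 0P and 35.4 ± 7.65% in 8P, and Wnt6 took 29.1 ± 3.23% and 27.3 ± 6.88%. The first place between them was within their spread in 0P, and in 8P their ranges overlapped (28.1 to 47.8% for Wnt5a and 19.3 to 36.9% for Wnt6). Wnt6 had 1.79 ± 0.994% of the ligand level in 0ND and 7.22 ± 3.91% in 8ND. Wnt10a had 0.637 ± 0.610% in 0ND, 3.05 ± 1.78% (8ND), 15 ± 4.43% (0P) and 12.2 ± 3.30% (8P).

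**Figure D2:**
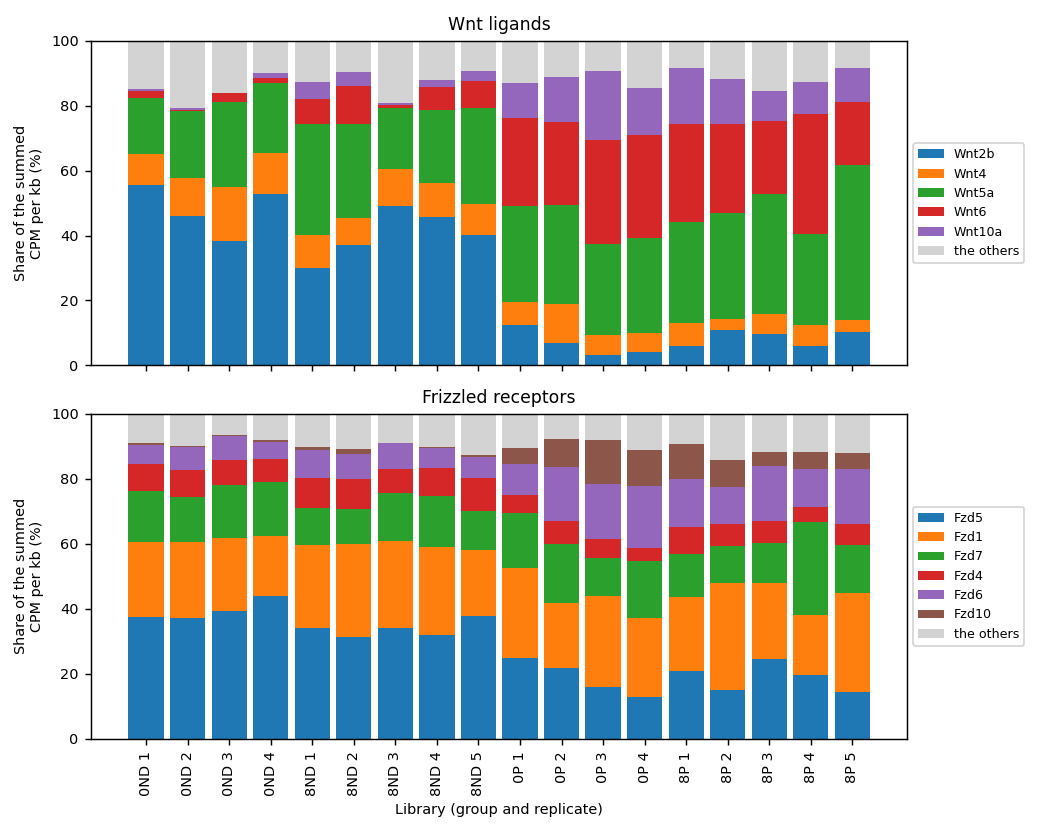
Share (%) of the summed CPM per kilobase of exon that each gene took in each library (columns), for the 19 Wnt ligands (top) and the 10 Frizzled receptors (bottom), with the less abundant genes joined in grey. Wnt2b is the largest ligand share in the 0ND libraries and Wnt6 and Wnt10a widen in the P libraries, while Fzd5 shrinks and Fzd10 and Fzd6 widen among the receptors.

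Ligand acylation and secretion genes did not pass in either comparison. Porcn, the acyltransferase, had means of 2.13 CPM in 0ND and 3.14 in 0P (0.54 ± 0.31, adjusted p = 0.208) and of 2.64 in 8ND and 2.22 in 8P (−0.20 ± 0.28, adjusted p = 0.641). Wls, the carrier of Wnt ligands, was expressed at 87.0 CPM in 0ND, 97.0 in 0P, 90.8 in 8ND and 107 in 8P. Its log2 fold change was 0.16 ± 0.11 (adjusted p = 0.315) in 0P vs 0ND and 0.23 ± 0.10 (adjusted p = 0.0901) in 8P vs 8ND.

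Of the R-spondins, Rspo3 fell in dysplasia. This R-spondin, which stromal cells supply to the crypt base, measured 15.4, 12.8, 16.4 and 9.07 CPM in 0ND 1 to 4 and 4.65, 2.38, 0.684 and 2.17 CPM in 0P 1 to 4. It measured 8.55, 10.6, 6.21, 13 and 14.2 CPM in 8ND 1 to 5 and 2.23, 3.80, 1.62, 0.982 and 5.09 CPM in 8P 1 to 5. The P and ND libraries did not overlap at either dose. The log2 fold change was −2.41 ± 0.46 (adjusted p = 5.67e-04) in 0P vs 0ND and −1.95 ± 0.41 (adjusted p = 0.00161) in 8P vs 8ND. Markers of CD81-positive crypt-base fibroblasts, a stromal source of R-spondin, summed to 146 to 277 CPM (0ND), 248 to 413 (8ND), 165 to 266 (0P) and 133 to 398 (8P), with none at 0. Of these 5 markers, 1 was higher and 2 were lower in 0P vs 0ND, and 1 was higher and 3 were lower in 8P vs 8ND, and their part in the fall of Rspo3 was not tested.

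Rspo1 was a rare transcript with its highest levels in 8ND. It measured 0.508, 0.352, 0 and 0 CPM in 0ND 1 to 4 and 2.07, 1.74, 0.856, 3.46 and 1.84 CPM in 8ND 1 to 5. It measured 0.176, 0.384, 0 and 0.558 CPM in 0P 1 to 4 and 0.318, 0.760, 0.081, 0.210 and 1.67 CPM in 8P 1 to 5. Most 8P libraries lay below the 8ND libraries, with 8P 5 among them, and the log2 fold change in 8P vs 8ND was −1.70 ± 0.67 (adjusted p = 0.0639). Without 8P 5 it was −2.52 (adjusted p = 0.0112), and limma-voom gave −2.12 (adjusted p = 0.0141). Rspo2 and Rspo4 were not tested and had 112 and 55 reads over all libraries. Rspo4 had 0 reads in the 0ND libraries, 4 in 8ND (all in 8ND 2), 16 in 0P and 35 in 8P, with reads in all 9 P libraries. With no filter on low counts, Rspo4 passed in 0P vs 0ND (adjusted p = 0.0191) and in 8P vs 8ND (adjusted p = 0.0459), and Wnt8b passed in 8P vs 8ND (adjusted p = 0.0226), with 1 read in 8ND and 30 in 8P.

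**Figure D3:**
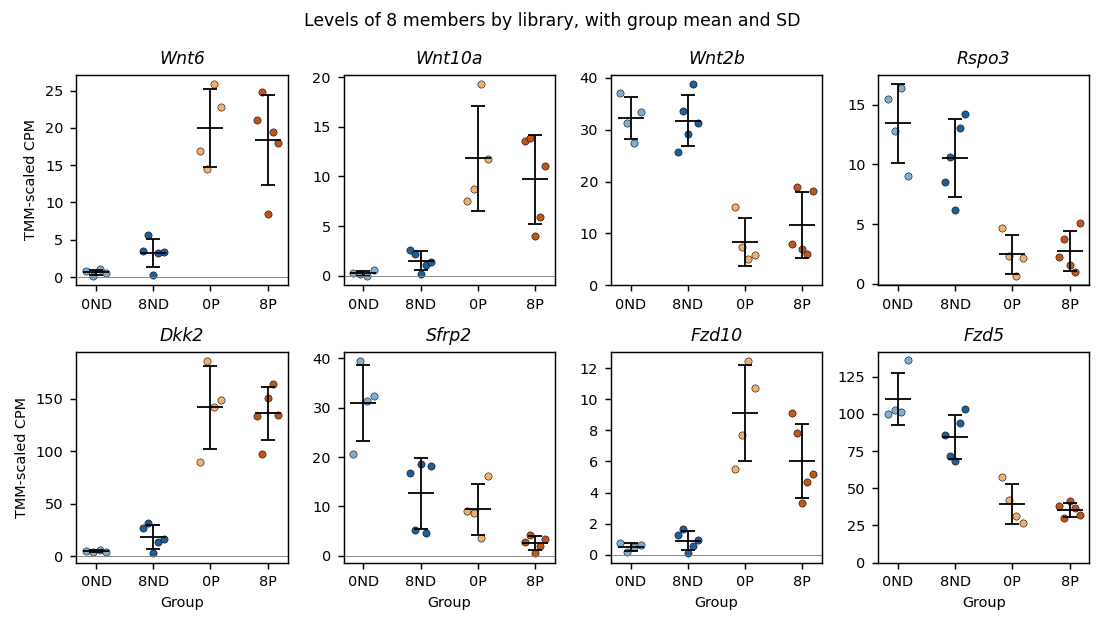
TMM-scaled CPM of 8 members in each library (points, by group on the horizontal axis), with the group mean (horizontal bar) and SD (whiskers; n = 4, 5, 4 and 5). Wnt6, Wnt10a, Dkk2 and Fzd10 are higher and Wnt2b, Rspo3 and Fzd5 lower in every P library than in every ND library, whereas Sfrp2 is highest in 0ND and lowest in 8P.

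The receptors moved in both directions, with 9 of 14 tested past the threshold in 0P vs 0ND (4 higher and 5 lower) and 8 in 8P vs 8ND (4 higher and 4 lower). Fzd10, a Frizzled that is scarce in normal colon, measured 0.762, 0.176, 0.472 and 0.648 CPM in 0ND 1 to 4 and 5.53, 7.67, 12.4 and 10.7 CPM in 0P 1 to 4. It measured 1.24, 1.66, 0.107, 0.532 and 0.922 CPM in 8ND 1 to 5 and 9.11, 7.82, 3.32, 4.70 and 5.18 CPM in 8P 1 to 5. The lowest P library, 8P 3, was above the highest ND library, 8ND 2. The change in log2 was 3.99 ± 0.51 (adjusted p = 1.16e-05) in 0P vs 0ND and 2.66 ± 0.43 (adjusted p = 1.61e-04) in 8P vs 8ND, the latter 3.50 (adjusted p = 2.54e-04) without 8ND 1 and 8ND 2.

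Fzd5, a receptor of the intestinal epithelium, went the other way. It measured 99.9, 103, 101 and 136 CPM in 0ND 1 to 4 and 57.2, 41.9, 31.3 and 26.4 CPM in 0P 1 to 4. It measured 85.8, 71.4, 68.4, 93.7 and 103 CPM in 8ND 1 to 5 and 38.3, 29.9, 41.3, 36.5 and 31.6 CPM in 8P 1 to 5. All P libraries lay below all ND libraries, and 0ND 4 was the highest. As log2 fold change the difference was −1.49 ± 0.20 (adjusted p = 1.78e-05) in 0P vs 0ND and −1.25 ± 0.18 (adjusted p = 5.08e-05) in 8P vs 8ND, the smallest p of any member in the latter. The colonocyte markers, 3 of 4 lower in P at both doses, summed to 747 to 1725 CPM (0ND), 370 to 690 (8ND), 36.9 to 193 (0P) and 33.1 to 112 (8P). The goblet cell markers, 4 of 4 lower, summed to 7120 to 9157 CPM (0ND), 11307 to 17708 (8ND), 1481 to 3247 (0P) and 705 to 3642 (8P). None was at 0, and their part in the fall of Fzd5 was not tested.

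Lrp5, which pairs with Frizzled to pass the signal to beta-catenin, measured 50.5, 75.6, 55.2 and 68.2 CPM in 0ND 1 to 4 and 104, 101, 110.1 and 102 CPM in 0P 1 to 4. It measured 80.7, 67.7, 69.999, 71.1 and 62.9 CPM in 8ND 1 to 5 and 89.0, 116, 73.0, 91.0 and 88.5 CPM in 8P 1 to 5. The groups did not overlap at 0 mg/kg, while at 8 mg/kg 8P 3 lay below 8ND 1. The log2 fold change was 0.74 ± 0.14 (adjusted p = 3.54e-04) in 0P vs 0ND and 0.38 ± 0.12 (adjusted p = 0.0259) in 8P vs 8ND, and the latter call was lost without 8ND 2, 8ND 5 or 8P 2 (adjusted p 0.0521 to 0.0710). Its partner coreceptor Lrp6 was lower in 0P (249 ± 15.4 CPM) than in 0ND (356 ± 24.5 CPM; −0.51 ± 0.11, adjusted p = 0.00160). In 8P it was 273 ± 32.9 CPM, against 296 ± 35.0 in 8ND (−0.12 ± 0.10, adjusted p = 0.410).

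Among the other receptors, Fzd3 and Fzd6 rose. Fzd3 went from 5.04 ± 1.34 CPM in 0ND to 12.3 ± 5.38 in 0P (1.31 ± 0.32, adjusted p = 0.00366) and from 7.36 ± 2.46 in 8ND to 12.9 ± 1.45 in 8P (0.82 ± 0.28, adjusted p = 0.0330). The latter call of Fzd3 was lost without 8ND 1, 8ND 3, 8P 1, 8P 4 or 8P 5 (adjusted p 0.0507 to 0.0833) and without 8ND 1 and 8ND 2 together (0.0719). Fzd6 went from 12.3 ± 1.40 to 22.3 ± 5.24 CPM at 0 mg/kg (0.86 ± 0.19, adjusted p = 0.00181) and from 12.6 ± 1.46 to 19.3 ± 4.53 CPM at 8 mg/kg (0.62 ± 0.17, adjusted p = 0.0108). Fzd4 and Fzd8 fell. Fzd4, a receptor also found on endothelium, went from 21.2 to 11.2 CPM (−0.92 ± 0.21, adjusted p = 0.00203) and from 21.6 to 12.2 CPM (−0.82 ± 0.18, adjusted p = 0.00242). Of the 8 endothelial markers 1 was lower in 0P vs 0ND and 4 in 8P vs 8ND; their sums were 153 to 230.3 CPM (0ND), 142 to 203 (8ND), 130.4 to 177 (0P) and 80.1 to 146 (8P), with none at 0, and their part in the change of Fzd4 was not tested. Fzd8 went from 10.2 to 4.33 CPM (−1.24 ± 0.26, adjusted p = 0.00121) and from 8.35 to 4.94 CPM (−0.76 ± 0.23, adjusted p = 0.0188), and the latter call was lost without 8ND 5 (adjusted p = 0.0730). Ror1, a receptor of Wnt5a, fell from 17.5 ± 3.95 to 7.57 ± 2.49 CPM (−1.22 ± 0.28, adjusted p = 0.00248) and from 13.9 ± 2.81 to 6.43 ± 2.29 CPM (−1.11 ± 0.25, adjusted p = 0.00282).

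Fzd1, Fzd2, Fzd7, Ror2 and Ryk passed in neither comparison. Their log2 fold changes lay between −0.38 (Fzd7) and 0.42 (Ror2) in 0P vs 0ND and between −0.34 (Fzd1) and 0.04 (Ryk) in 8P vs 8ND. Ryk, a receptor with an inactive kinase domain, averaged 38.8 CPM (0ND), 46.3 (8ND), 46.2 (0P) and 47.5 (8P). Fzd9 was not tested, with 94 reads in all. Per kilobase, Fzd5 took 39.4 ± 3.08% of the Frizzled level in 0ND, 33.8 ± 2.45% (8ND), 18.8 ± 5.54% (0P) and 18.8 ± 4.21% (8P). Fzd1 was then the largest share in dysplasia, with 25.1 ± 3.81% in 0P and 25.7 ± 5.94% in 8P, a lead over Fzd5 within the spread of the libraries in both. Fzd6 went from 6.39 ± 0.966% in 0ND to 15.6 ± 4.21% in 0P, and Fzd10 from 0.394 ± 0.197% to 9.48 ± 3.53%, with 14.4 ± 2.74% and 6.68 ± 2.67% in 8P.

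Of 7 tested secreted inhibitors, Dkk2 and Dkk3 rose, Sfrp2 fell and 4 did not pass in either comparison. Dkk2, an Lrp5 and Lrp6 binding protein, had the smallest p of all members in 0P vs 0ND. It measured 4.83, 4.57, 6.02 and 4.32 CPM in 0ND 1 to 4 and 90.1, 186, 142 and 149 CPM in 0P 1 to 4. It measured 27.4, 31.9, 3.32, 14.1 and 17.0 CPM in 8ND 1 to 5 and 134, 97.3, 151, 164 and 135 CPM in 8P 1 to 5. The P libraries all lay far above the ND libraries, and 8ND 3 was the lowest library of all. With all libraries the log2 fold change was 4.84 ± 0.49 (adjusted p = 3.81e-06) in 0P vs 0ND and 2.85 ± 0.39 (adjusted p = 6.54e-05) in 8P vs 8ND, the latter 3.59 (adjusted p = 3.36e-05) without 8ND 1 and 8ND 2.

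Dkk3, a relative of the Dkk proteins that differs from them in its binding partners, measured 35.1, 40.8, 36.1 and 29.6 CPM in 0ND 1 to 4 and 92.6, 62.0, 104 and 125 CPM in 0P 1 to 4. It measured 52.3, 32.9, 36.7, 34.1 and 48.5 CPM in 8ND 1 to 5 and 91.6, 101, 49.6, 110.1 and 83.7 CPM in 8P 1 to 5. At 0 mg/kg the groups did not overlap, and at 8 mg/kg 8P 3 lay below 8ND 1. In log2 terms the change was 1.44 ± 0.23 (adjusted p = 1.14e-04) in 0P vs 0ND and 1.09 ± 0.21 (adjusted p = 6.28e-04) in 8P vs 8ND.

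Sfrp2, a Wnt-binding protein of stromal cells, was lower in P at both doses. It measured 20.7, 39.4, 31.4 and 32.4 CPM in 0ND 1 to 4 and 9.04, 8.75, 3.69 and 16.1 CPM in 0P 1 to 4. It measured 16.7, 5.22, 18.6, 4.52 and 18.1 CPM in 8ND 1 to 5 and 2.87, 4.23, 0.567, 1.89 and 3.42 CPM in 8P 1 to 5. ND and P did not overlap at either dose, although 8ND 2 and 8ND 4 came close to the 8P libraries. The log2 fold change was −1.69 ± 0.51 (adjusted p = 0.0163) in 0P vs 0ND and −2.32 ± 0.50 (adjusted p = 0.00211) in 8P vs 8ND. The former was lost without 0P 3 (adjusted p = 0.0515) and with no filter on low counts (0.0671). Of the 11 fibroblast markers, whose sums are given above, 6 were higher and 2 lower in 0P vs 0ND and 1 was higher and 2 were lower in 8P vs 8ND, and their part in the fall of Sfrp2 was not tested.

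Dkk1, Frzb, Sfrp1 and Sfrp4 had log2 fold changes between −0.47 (Dkk1) and 0.57 (Frzb) over the 2 comparisons. Sfrp1 varied widely within the 8 mg/kg groups, from 66.1 to 147 CPM in 8ND and from 25.0 to 189 CPM in 8P, as compared to 48.3 to 53.5 CPM in 0ND. Dkk4 and Sfrp5 were not tested, with 8 and 19 reads in all. Per kilobase, the summed inhibitor level was 40.3 ± 5.25 (0ND), 49.5 ± 7.47 (8ND), 83.7 ± 11.7 (0P) and 88.2 ± 17.6 (8P). Sfrp2 took 35.3 ± 5.31% of it in 0ND and 5.09 ± 2.28% in 0P, whereas Dkk2 took 3.35 ± 0.626% in 0ND and 45.4 ± 10.1% in 0P. In 8ND the shares were 12.8 ± 8.42% for Sfrp2 and 9.75 ± 5.35% for Dkk2, and in 8P they were 1.31 ± 0.623% and 43.7 ± 13.9%.

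**Figure D4:**
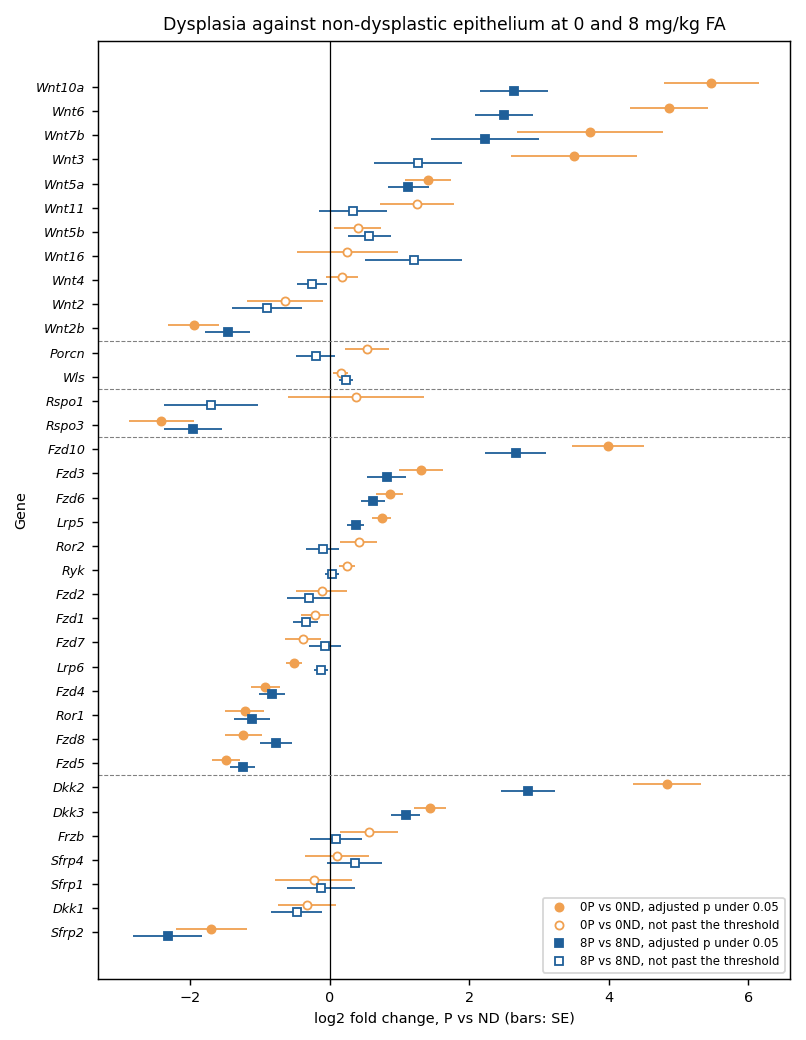
Log2 fold change (horizontal axis, with SE) of the 36 tested members in 0P vs 0ND (orange circles) and 8P vs 8ND (blue squares), by role from the top: ligands, secretion, R-spondins, receptors and inhibitors; filled symbols passed the test. Filled symbols of both comparisons lie on the same side of 0 for 17 members.

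The comparison of 8ND with 0ND asked whether these genes differed with the FA dose in epithelium without dysplasia. None of the 36 members passed the edgeR test, where 0.0481% of all genes did, and limma-voom also called 0 members. DESeq2 called 3 members, Dkk2, Wnt6 and Wnt10a, all higher in 8ND, against 1.52% of all genes called by it. For Rspo1 it gave no adjusted p. At an unadjusted p under 0.05 there were 9 of 36 members, against 9.91% of all genes. The groups did not overlap for Rspo1 and Sfrp1 (higher in 8ND, where 2.15% of all genes were so) and for Sfrp2 (lower, 1.8% of all genes).

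Dkk2, with the library values given above, was 4.93 ± 0.753 CPM in 0ND and 18.8 ± 11.3 in 8ND (1.94 ± 0.45, adjusted p = 0.107). Wnt6 was 0.635 ± 0.374 and 3.19 ± 1.88 CPM (2.24 ± 0.57, adjusted p = 0.130), and Wnt10a was 0.242 ± 0.225 and 1.51 ± 0.95 CPM (2.55 ± 0.73, adjusted p = 0.179). For each of the 3 genes the other four 8ND libraries lay above all 0ND libraries and 8ND 3 lay among or below them. Without 8ND 3 the edgeR adjusted p was 9.19e-04 for Dkk2, 0.00516 for Wnt6 and 0.0473 for Wnt10a, so that 1 library decided whether these members passed. The DESeq2 values with all libraries were 4.87e-04, 0.00327 and 0.0140. Without 8ND 1 and 8ND 2, the libraries nearest to P, the edgeR log2 fold changes were 1.19, 1.67 and 1.75 (adjusted p 0.615, 0.661 and 0.752). Picking those libraries for nearness to P can by itself lower these fold changes, so they are a description. Rspo1 had a log2 fold change of 2.94 ± 0.83 (adjusted p = 0.167) on 10 reads over the 0ND libraries, and Sfrp2 had −1.27 ± 0.47 (adjusted p = 0.347). None of the fibroblast, crypt-base fibroblast or smooth muscle markers passed between 8ND and 0ND, although the summed fibroblast level did not overlap between them, as the ranges above show. The summed goblet cell markers (higher in 8ND) and colonocyte markers (lower) did not overlap either, with none of them called. The part of these cells in the differences was not tested.

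Within dysplasia, no difference by dose was detected. In 8P vs 0P, 0 of 36 members passed by edgeR, DESeq2 or limma-voom, where 0% of all genes passed by edgeR, and 3 members against 10.1% of all genes had an unadjusted p under 0.05. The 3 were Sfrp2, Wnt4 and Sfrp4, and DESeq2 gave no adjusted p for Sfrp4. Sfrp2 averaged 9.39 ± 5.08 CPM in 0P and 2.60 ± 1.42 in 8P (−1.90 ± 0.51, adjusted p = 0.434), with 8P 2 above 0P 3. By DESeq2 Sfrp2 lay next to the threshold (−1.89, adjusted p = 0.0505). Wnt4 measured 8.25, 12.8, 9.44 and 8.06 CPM in 0P 1 to 4 and 9.23, 5.86, 4.54, 6.45 and 6.75 CPM in 8P 1 to 5, and only 8P 1 reached the 0P range (−0.55 ± 0.22, adjusted p = 0.465). Sfrp4, an Sfrp that is scarce here, measured 1.14, 2.00, 0.821 and 1.98 CPM in 0P 1 to 4 and 2.93, 4.56, 2.67, 0.912 and 3.98 CPM in 8P 1 to 5, with 8P 4 alone inside the 0P range (0.96 ± 0.42, adjusted p = 0.476). In ND, Wnt4 measured 6.35, 7.91, 11.9 and 7.88 CPM in 0ND and 8.83, 7.51, 6.74, 9.05 and 7.38 CPM in 8ND, and Sfrp4 measured 1.78, 2.11, 1.18 and 0.648 CPM in 0ND and 2.90, 2.21, 2.14, 3.46 and 1.23 CPM in 8ND, with overlap in both. No member had groups without overlap in 8P vs 0P, where 1.36% of all genes did so higher and 0.89% lower. For the genes with the largest rise in dysplasia, approximate 95% intervals of the log2 fold change were taken from its SE and a normal distribution. They were −0.90 to 0.65 for Wnt6, −0.79 to 0.68 for Dkk2 and −1.14 to 0.58 for Wnt10a. Such intervals are narrower than the edgeR test implies.

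**Figure D5:**
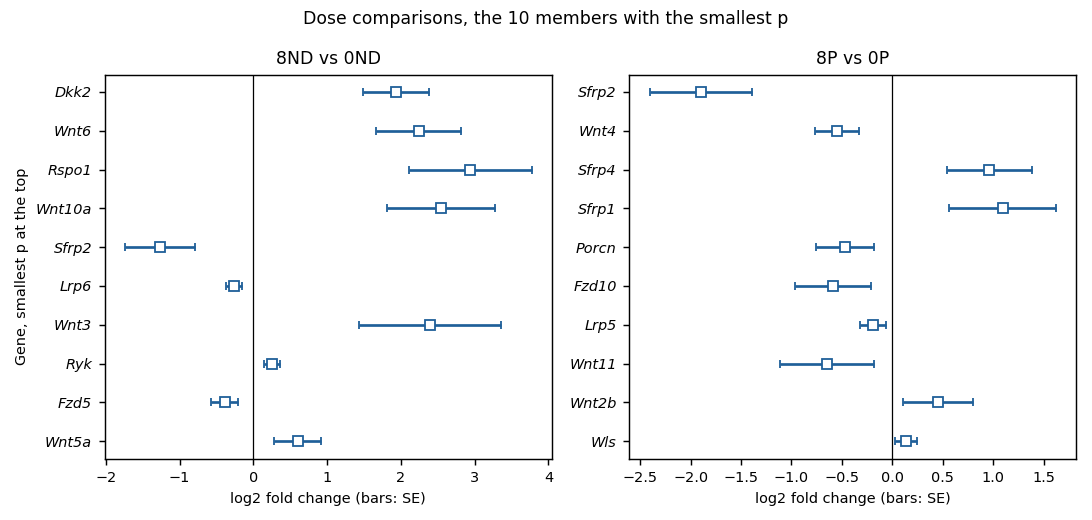
Log2 fold change with SE (horizontal axis) of the 10 members with the smallest p in 8ND vs 0ND (left) and 8P vs 0P (right), ordered by p from the top; open symbols mark that none passed the edgeR test. Dkk2, Wnt6, Rspo1 and Wnt10a head the ND comparison on the right of 0, and Sfrp2 heads the P comparison on the left of 0; the horizontal axes differ between the panels.

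The dysplasia effects at the 2 doses were compared as an interaction, (8P − 8ND) minus (0P − 0ND). None of the 36 members passed by edgeR, where 0% of all genes passed, and 4 had an unadjusted p under 0.05, against 10.4% of all genes. The smallest p-values belonged to Wnt6 (−2.36 ± 0.70) and Dkk2 (−1.99 ± 0.58), both with an adjusted p of 0.316, and to Wnt10a (−2.83 ± 0.86, adjusted p = 0.322), whose rise in dysplasia was numerically larger at 0 mg/kg. DESeq2 called Dkk2 (adjusted p = 0.0466) and limma-voom called none. Without 8ND 3, edgeR called Dkk2 (−2.27, adjusted p = 0.0109) and Wnt6 (−2.67, adjusted p = 0.0370), and without 8ND 1 and 8ND 2 neither passed (adjusted p 0.476 for both). For Wnt3 and Lrp6, called at 0 mg/kg alone, the interaction had an adjusted p of 0.502 and 0.389.

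The other genes of the pathway were taken as a pair of lists that hold no member. Of 29 tested extracellular and membrane regulators, 17 were higher and 2 lower in 0P vs 0ND, and 13 higher and 2 lower in 8P vs 8ND, against 15.9% and 15.7%, and 13.9% and 14.3%, of all genes. Their median log2 fold changes were 1.05 and 0.46, against −0.03 and 0.00 for all genes. Rnf43, a ubiquitin ligase that removes Frizzled receptors and is opposed by R-spondins, rose from 67.2 ± 11.2 CPM in 0ND to 406 ± 96.1 in 0P (2.59 ± 0.22, adjusted p = 4.93e-07) and from 105 ± 32.2 CPM in 8ND to 424 ± 57.3 in 8P (2.01 ± 0.19, adjusted p = 3.11e-06). Its relative Znrf3 rose by 1.96 ± 0.20 and 1.37 ± 0.18 on the log2 scale. Ptk7, a coreceptor with an inactive kinase, rose by 2.05 ± 0.21 and 1.08 ± 0.18. The membrane-bound Wnt inhibitor Apcdd1 was among the 4 smallest p in 0P vs 0ND (3.70 ± 0.40), and the Frizzled-associated tetraspanin Tspan12 in 8P vs 8ND (1.55 ± 0.18).

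Of 36 intracellular genes of the pathway, 13 were higher and 4 lower in 0P vs 0ND and 14 higher and 3 lower in 8P vs 8ND, so that 17 of 36 were called in each, against 31.6% and 28.2% of all genes. Their median log2 fold changes were 0.22 and 0.18. Axin2, a scaffold of the beta-catenin destruction complex and itself a target of the pathway, rose from 47.1 ± 9.91 CPM to 391 ± 102 at 0 mg/kg (3.06 ± 0.24, adjusted p = 4.70e-07) and from 84.0 ± 19.9 CPM to 329 ± 84.6 at 8 mg/kg (1.97 ± 0.21, adjusted p = 4.61e-06). The beta-catenin partners Lef1 and Tcf7 rose by 2.82 ± 0.29 and 2.14 ± 0.25 in 0P vs 0ND and by 2.20 ± 0.25 and 1.61 ± 0.22 in 8P vs 8ND, and the kinase Csnk1e rose by 1.59 ± 0.17 and 1.09 ± 0.15. No gene of either list passed in 8ND vs 0ND, 8P vs 0P or the interaction by edgeR, with 12 of 29 regulators and 6 of 36 intracellular genes at an unadjusted p under 0.05 in 8ND vs 0ND, against 9.91% of all genes.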

How the data were processed

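For each of the 18 libraries the authors deposited raw counts, as a file that pairs gene names with whole read numbers. Per the labels and the paper's methods, 40 ng of RNA entered a stranded low-input library kit, Bowtie placed the reads on mm10 and HTSeq assigned them to RefSeq genes. For versions and the strand setting of the counting, the sources used here give nothing. Lines that name no gene were left out of library sizes and tests; per library, 22.0 to 40.7% of all reads fell on no gene, 40.1 to 62.2% lacked a unique alignment and 0.220 to 0.384% were ambiguous. The sources mention no molecular identifiers, so counts may include PCR copies. The interval of the Wnt7b ratio covers counting error only, and intervals from an SE also cover the spread between libraries.

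The main test was that of edgeR 4.0.16 in R 4.3.3, with filterByExpr by group (minimum count 10), which left 20787 genes, TMM scaling and a robust quasi-likelihood fit of all 18 libraries with a mean per group. Benjamini-Hochberg adjustment covered every gene tested, and a gene was called at an adjusted p under 0.05. SEs were derived from the F statistic and the log2 fold change. The common biological coefficient of variation was 0.261. Only the edgeR comparison of 0P with 0ND was tested on simulated data, with changes placed in genes of higher counts than the scarce members. The other comparisons and methods were not tested in that way. DESeq2 1.42.0 (which the study ran on these counts, beside Cuffdiff on another alignment, not used here), limma-voom (limma 3.58.1), other scalings, no filter, a fold change of at least 2, a replicate block and fits without single libraries were alternatives. Levels are TMM-scaled CPM as mean ± SD, marker sums are CPM of the total counts, and exon lengths come from GENCODE M21. Promoters come from RefSeq (GRCm38.p6).

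Members were all genes whose symbol met the rule. Values in every library are given for the 8 members with the smallest p among those called in each comparison, or the 3 smallest p where fewer than 3 were called; from each other list up to 4 genes with the smallest p were named. The members, lists and markers were chosen with earlier results of these data known.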

Additional observations from a re-analysis of the deposited data

Results flagged for a closer look

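In 22 members, each group was checked for a library far from the others, which gave 88 combinations of a member and a group with a spread, and 2 were flagged; chance flags about 1 in 20 groups. Fzd5 was 136 CPM in 0ND 4, as compared to 99.9 to 103 CPM in the other 0ND libraries. Wnt7b was 0.352 CPM in 0ND 2, which is 2 reads, and 0 in the other 0ND libraries.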

How the results depend on the processing

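In 8ND vs 0ND the number of members called was 3 with DESeq2 and 0 to 3 over the fits without 1 library (3 without 8ND 3); for the interaction it was 1 with DESeq2 and 0 to 2 over such fits (2 without 8ND 3), and the cause was not tested. The counts of 19 in 0P vs 0ND, 17 in 8P vs 8ND and 0 in 8P vs 0P stayed within 1.5 times under each alternative run, at 18 to 20 and 14 to 17 over the fits without 1 library; with at least 2-fold as well they were 15 and 12. Over members called in a comparison, or with the smallest p where fewer than 3 were called, 797 alternatives were run: 768 kept the direction and the side of the threshold, 20 lost the call, 9 gained it and none reversed. Fits in which the filter left a member out, as for Wnt7b, are not among them. DESeq2 fits without an adjusted p, as for Rspo1 in 8ND vs 0ND and Sfrp4 in 8P vs 0P, were counted as not called. Outside these, Wnt11 gained a call in 0P vs 0ND (without 0ND 1) and Rspo1 in 8P vs 8ND (limma-voom, the replicate block and without 8P 5). The labels do not say whether numbers pair ND with P. Correlations of same-numbered libraries were 0.03 to 0.20 for 0ND with 0P (other numbers −0.12 to 0.07) and −0.08 to 0.27 for 8ND with 8P (−0.25 to 0.21). In these pairs of groups, 5 of 8 and 4 of 10 libraries correlated best with their own number. These values do not settle whether the libraries are paired, and pairing was not assumed. With a replicate block the counts were 19 in 0P vs 0ND, 16 in 8P vs 8ND (Lrp5 and Wnt7b lost and Rspo1 gained) and 0 in the interaction. They were also 0 in the dose comparisons. There the block joined same-numbered libraries of mice on different diets, so it is no check of pairing. Members under about 1 CPM, such as Wnt3, Wnt7b and Rspo1, rest on few reads per library, and their fold changes depend on single libraries.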
